A study of Mus musculus with 4 samples.

Results

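Aminoacyl-tRNA synthetases are the enzymes that join each amino acid to its tRNA before translation. Their transcripts were compared in plumbagin-treated and untreated B16F10 cells. The members are those of an enzyme family: 36 synthetase genes, 20 of the cytosolic enzymes and 16 of the mitochondrial ones, whose symbols end in 2. Probe sets annotated to a single member symbol were found for 32 of them, 17 cytosolic and 15 mitochondrial, among the 17097 named genes on the arrays. Cars, Dars, Tars and Yars2 had no probe set named in the annotation used and were not analysed here. The brightest probe set stood for each gene.

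The 4 arrays held total RNA of B16F10, a C57BL/6 mouse melanoma line that makes pigment. For 24 h, 2 samples received 2 µM of the naphthoquinone plumbagin, a plant compound (called plumbagin 1 and plumbagin 2), and the other 2 samples received MilliQ water, 0 µM plumbagin (control 1 and control 2). No genotype or transgene is labelled for either group, all samples come from the same line, and the labels name neither the solvent of plumbagin nor separate cultures. The p-values therefore measure only the spread between these samples, which may be technical.

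A synthetase activates its amino acid with ATP and transfers it to the matching tRNA, and the family falls into class I and class II by the fold of the catalytic domain. In animal cells several cytosolic synthetases sit together in a multisynthetase complex on small scaffold proteins, while a separate set, encoded in the nucleus, charges the tRNAs inside mitochondria. Many cytosolic synthetase genes are known targets of ATF4, which drives transcription in the integrated stress response and binds composite C/EBP-ATF response elements (CARE).

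Values are log2 expression values of probe sets, and a difference is plumbagin minus control on that scale. In bulk RNA, fewer cells of a type and less RNA per cell cannot be told apart. The median per array lay between 4.32 and 4.39. Plumbagin 1 had the lowest upper quartile, 6.26, against 6.34 to 6.36 on the other arrays, and the highest mean of 18 hybridization control probe sets, 9.58 against 8.46 to 8.77. The background level was 5.05, taken as the 95th percentile over 41 odorant receptor genes on the assumption that melanoma cells do not transcribe them. All 17 cytosolic members and 11 of the 15 mitochondrial members had a mean above it. The melanocyte markers Tyr, Tyrp1, Dct, Pmel, Mlana, Mitf and Sox10, 7 of 7, had means from 10.9 to 12.3. Markers of leukocytes, endothelium, keratinocytes and fibroblasts were above background in 2 of 12 cases, Cd3e and Kdr, with summed levels of 50.7 and 49.7 on the plumbagin arrays and 49.9 and 49.6 on the control arrays.

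The promoters are shown because ATF4 acts on this family through a short DNA element. Promoters from RefSeq, build GRCm38.p6, were used for 27 of the 36 members, 24 of them measured. The windows of 300 bases reached from 250 bases before the gene start to 50 after it. The other members were left out of the search, so the member counts below do not cover them. The CARE core TGATGNAA was searched on both strands. It occurred in 5 of 13 cytosolic promoters and in 0 of 15 mitochondrial promoters, and in 3.97% of the 32851 promoters in the table. The 5 genes were Aars, Gars, Iars, Yars and Tars, for alanine, glycine, isoleucine, tyrosine and threonine. The matches of 4 of these genes are printed below on the strand that reads TGATGNAA, with the match in capitals and 11 bases on either side.
Gars, chr6:55037960-55037989, minus strand: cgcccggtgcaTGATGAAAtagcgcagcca
Iars, chr13:49682126-49682155, minus strand: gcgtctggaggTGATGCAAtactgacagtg
Yars, chr4:129189895-129189924, plus strand: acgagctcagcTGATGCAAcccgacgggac
Tars, chr15:11399655-11399684, plus strand: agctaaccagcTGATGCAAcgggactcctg

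The E-box CACGTG, which MYC and MITF bind, was found in 4 of 13 cytosolic promoters (Aars, Farsb, Iars and Tars) and 1 of 15 mitochondrial promoters (Ears2), against 7.15% of all promoters. The core of the NRF1 element, which is known from genes of mitochondrial function, was found in 3 of 13 cytosolic promoters (Farsb, Kars and Tars) and 2 of 15 mitochondrial promoters (Iars2 and Mars2), against 4.6% of all promoters. No matches of the 3 motifs overlapped each other. A match describes these letters in this window and does not show that a factor binds there.

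The comparison asked how the transcripts of each compartment stood after 24 h of plumbagin. The cytosolic transcripts were lower in 15 of 17 members, with a median difference of -0.20 (log2), a 1.15-fold lower level. The mitochondrial transcripts were lower in 11 of 15 members (median -0.08, 1.06-fold lower). Over all 17097 genes 55.1% were lower, with a median of -0.01. Brighter genes were lower more often on these arrays: 67.5% of the 5482 genes within the range of means of the cytosolic members (6.62 to 11.1) were lower, with a median of -0.06, and 59.5% of the 6007 genes within the range of the mitochondrial members (4.44 to 7.33), with a median of -0.03. The plot of values by array shows each member.

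**Figure D1:**
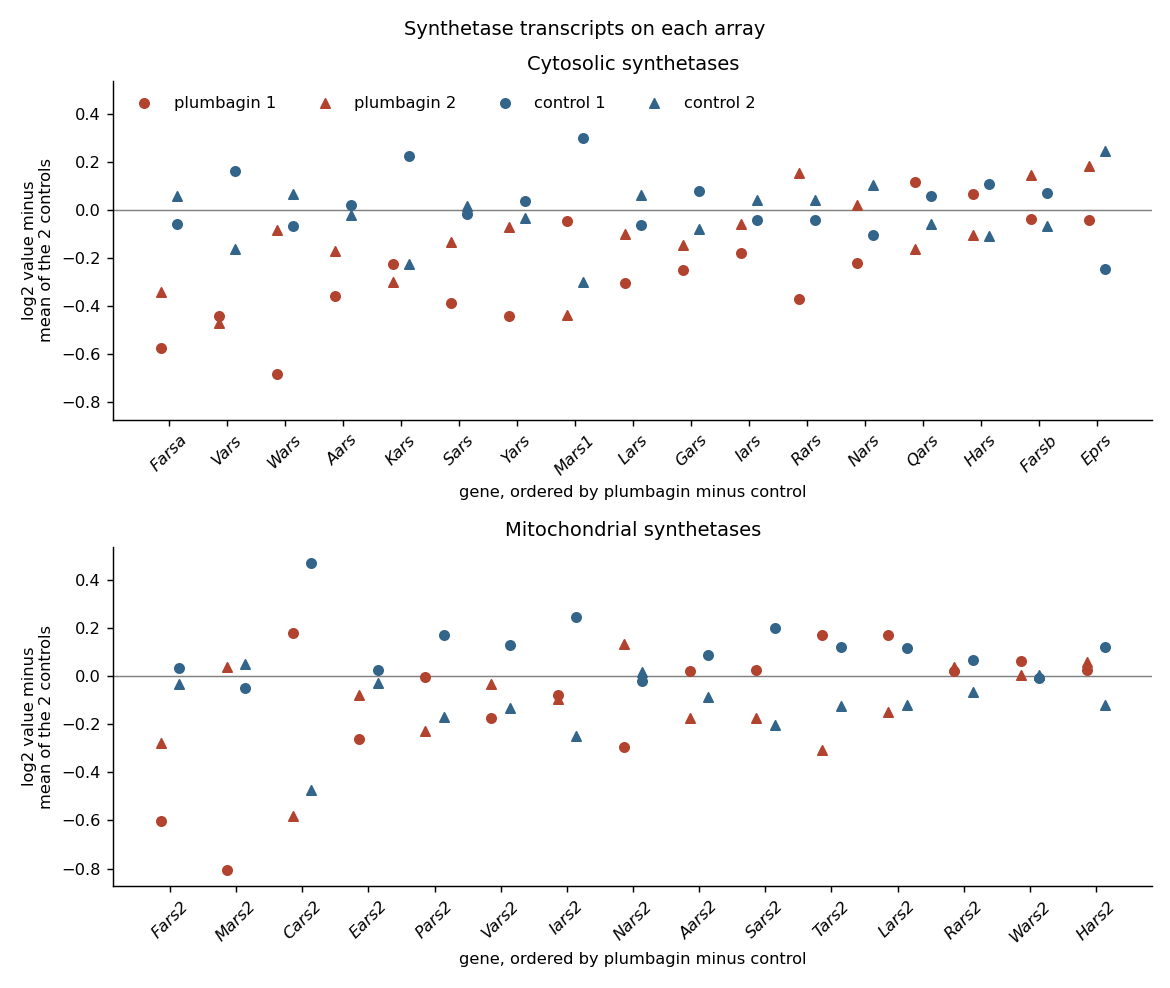
Log2 value of each synthetase transcript minus the mean of the 2 controls of that gene (vertical axis), for 17 cytosolic genes (top) and 15 mitochondrial genes (bottom), 1 point per array. Both plumbagin points lie below both control points in 10 cytosolic genes and in 2 mitochondrial genes, Fars2 and Ears2.

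No synthetase passed the test. Of all genes 0.0% had a limma adjusted p at or under 0.05, and the adjusted p was 1 for each of the 32 members. At an unadjusted p under 0.05 limma gave 3 members, Farsa, Vars and Fars2 (the last with a mean below background), all lower, against 0.988% of all genes in either direction and 0.731% in the lower direction. Both plumbagin arrays lay below both controls in 10 of 17 cytosolic and 2 of 15 mitochondrial members. This held for 15.2% of all genes, and for 18.9% and 16.9% of the genes within the cytosolic and mitochondrial ranges of means. No member had both plumbagin arrays above both controls, against 10.2% of all genes. The 95% interval of the difference spanned 0 in 29 of the 32 members. The difference exceeded the gap between replicates of either group in 6 cytosolic members and 1 mitochondrial member. In Iars the excess was smaller than the rounding, with a difference of -0.12 and a plumbagin gap of 0.12. The share of all genes that met this criterion was not counted.

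Among the cytosolic enzymes, Farsa and Vars had the largest differences. Farsa encodes the alpha subunit of phenylalanyl-tRNA synthetase, whose catalytic site it carries. It had log2 values of 6.27 and 6.51 on the plumbagin arrays and of 6.79 and 6.90 on the control arrays, and differed by -0.46 ± 0.12 (log2, SE, n = 2 per group; 1.37-fold lower). Vars, the valyl-tRNA synthetase, had 8.19 and 8.16 with plumbagin and 8.79 and 8.47 in the controls, and differed by -0.46 ± 0.13 (1.37-fold lower). In both genes the groups did not overlap, and in Vars the plumbagin arrays were 0.03 apart while the controls were 0.32 apart. The 95% intervals reached from -0.77 to -0.14 for Farsa and from -0.82 to -0.09 for Vars, before any adjustment. Without control 1 the Vars difference was -0.29, and a second Farsa probe set, described with the other probe sets, went the other way.

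Farsb encodes the beta subunit of the same phenylalanyl enzyme. It had 9.38 and 9.56 on the plumbagin arrays and 9.48 and 9.35 on the control arrays, a difference of 0.05 ± 0.11. Its groups overlapped, unlike those of Farsa. The Farsb difference was -0.02 with probe sets averaged and -0.18 with suffixed probe sets left out. Both of these values drew on a probe set below background, with a mean of 4.17. The second Farsb probe set above background differed by 0.06 ± 0.12. The 95% interval for Farsb, -0.24 to 0.35, overlapped that of Farsa, which is not a comparison of the genes. Within arrays, Farsa minus Farsb was -3.11 and -3.06 (log2) with plumbagin and -2.70 and -2.44 in the controls. This shift of -0.51 rested on the brightest Farsa probe set and was not tested.

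Aars, Sars, Gars and Lars were the next by p. Aars, the alanyl-tRNA synthetase, had 9.99 and 10.18 on the plumbagin arrays and 10.38 and 10.33 on the control arrays, a difference of -0.27 ± 0.10 (1.2-fold lower). Sars, the seryl-tRNA synthetase, had 10.44 and 10.69 with plumbagin and 10.81 and 10.84 in the controls, a difference of -0.26 ± 0.11 (1.2-fold lower). In Aars and Sars the controls were 0.04 and 0.03 apart, and plumbagin 1 was the lowest array. Gars, which encodes glycyl-tRNA synthetase for both the cytosol and mitochondria, had 10.96 and 11.06 with plumbagin and 11.29 and 11.13 in the controls, a difference of -0.20 ± 0.10 (1.15-fold lower). Lars, the leucyl-tRNA synthetase, which also acts as a leucine sensor upstream of mTORC1, had 9.49 and 9.69 with plumbagin and 9.73 and 9.86 in the controls, a difference of -0.20 ± 0.11 (1.15-fold lower). The groups did not overlap in any of these 4 genes, but the sizes leaned on single arrays. Without plumbagin 1 the differences of Aars, Sars and Lars were -0.17, -0.14 and -0.10, and without control 1 that of Gars was -0.12.

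Wars, Yars, Kars and Iars also had both plumbagin arrays below both controls. Wars, the tryptophanyl-tRNA synthetase, which is also induced by interferon gamma, differed by -0.38 ± 0.22, with plumbagin 1 lower than plumbagin 2 by 0.60. Without plumbagin 1 the difference of Wars was -0.08. Yars, for tyrosine, differed by -0.26 ± 0.15, and by -0.07 without plumbagin 1. Kars, which encodes the lysyl enzyme of both compartments, differed by -0.26 ± 0.17, with controls 0.45 apart, and by -0.04 without control 1. Its plumbagin 1 and control 2 values were both 9.20, so its groups were apart by less than the rounding. Iars, for isoleucine, differed by -0.12 ± 0.09, and by -0.06 without plumbagin 1.

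The other 7 cytosolic members had overlapping groups. Mars1, for methionine, differed by -0.24 ± 0.25, with controls 0.60 apart. Plumbagin 1 and control 1 were the higher arrays of their groups in Mars1. With the replicate number as a block its SE was 0.09, and it did not pass. Rars, for arginine, and Nars, for asparagine, differed by -0.11 ± 0.20 and -0.10 ± 0.13. Qars, for glutamine, and Hars, for histidine, differed by -0.02 ± 0.13 and -0.02 ± 0.12, and both were above 0 with repeated quantile normalization (0.0050 and 0.04) and with cyclic loess (0.03 and 0.05). Eprs, a fused enzyme for glutamate and proline, had the highest difference of the family. It had 10.07 and 10.29 on the plumbagin arrays and 9.86 and 10.35 on the control arrays, a difference of 0.07 ± 0.20, and control 1 was the lowest array.

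**Figure D2:**
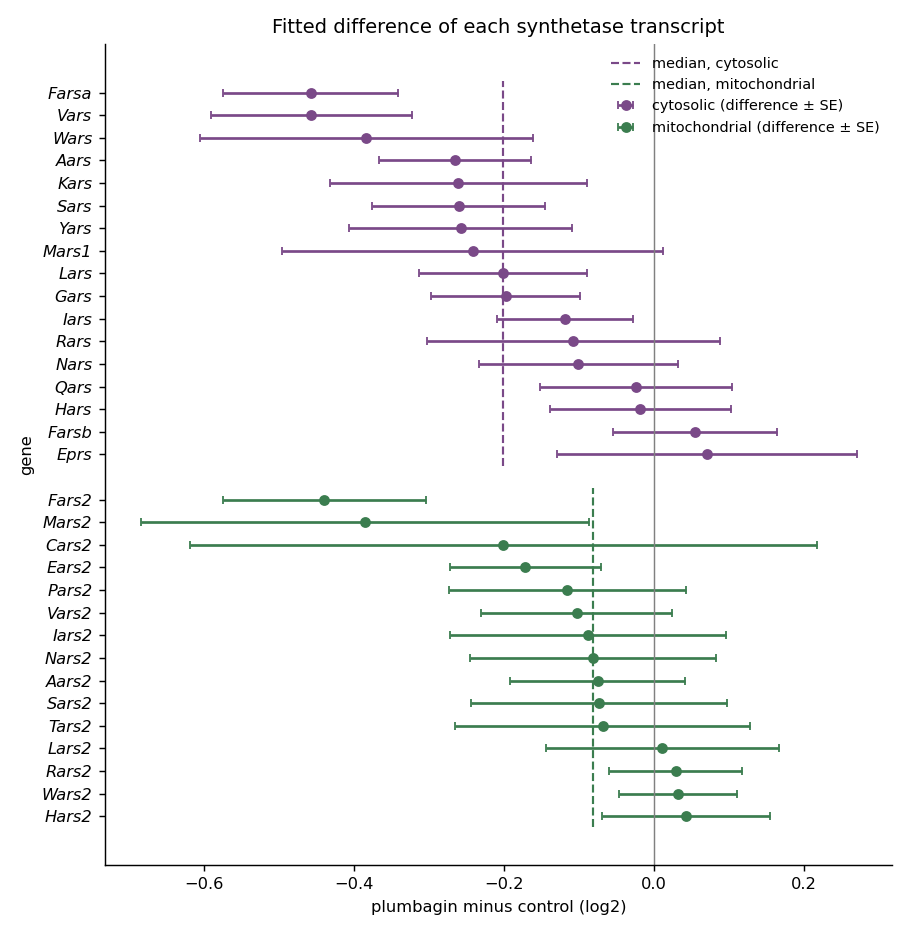
Fitted plumbagin minus control difference of each synthetase (horizontal axis, log2) with its SE, n = 2 per group, cytosolic genes above and mitochondrial genes below, each ordered by difference. Dashed lines mark the medians of -0.20 for cytosolic and -0.08 for mitochondrial genes.

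The classes and the complex were also set side by side. Of the genes within the cytosolic range of means, 67.5% were lower and 18.9% had groups that did not overlap. Class I cytosolic enzymes were lower in 8 of 9 members (median -0.20) and class II enzymes in 7 of 8 (median -0.23), with 5 members of each class showing groups that did not overlap. Members of the multisynthetase complex were lower in 6 of 7 (median -0.12), with 3 not overlapping: Iars, Kars and Lars. Cytosolic enzymes outside the complex were lower in 9 of 10 (median -0.26), with 7 not overlapping: Farsa, Vars, Aars, Sars, Gars, Wars and Yars. Scaffold genes of the complex gave no call: Eef1e1 differed by -0.23 ± 0.16, Aimp2 by -0.18 ± 0.16 and Aimp1 by 0.04 ± 0.11. These are descriptions of small groups, and no difference between them was tested.

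Cytosolic synthetases on the list of reported ATF4 targets were lower in 10 of 11 members (median -0.24), with 8 not overlapping, where 67.5% and 18.9% of the genes within the cytosolic range of means did so. Set against the control mean, their median was -0.30 on plumbagin 1 and -0.10 on plumbagin 2. The other 6 were lower in 5 members (median -0.07), with 2 not overlapping, Farsa and Kars. The 4 measured genes with a CARE core in the promoter window, Aars, Gars, Iars and Yars, all had both plumbagin arrays below both controls, with differences from -0.27 to -0.12 and a median of -0.23. The 7 measured cytosolic genes whose windows held no match had a median of -0.24, and 3 of them did not overlap: Farsa, Kars and Sars. Hars, Lars, Nars, Rars, Vars and Wars had no window in the search, and of these Lars, Vars and Wars did not overlap. Hars, Lars and Nars lie on the same chromosome as the mitochondrial Hars2, and no measured member there was searched. Whether the promoters left out hold a CARE core was not tested. The list was drawn up with earlier results of these arrays known, so its direction is not independent evidence.

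Among the mitochondrial enzymes only Fars2 and Ears2 had groups that did not overlap. Fars2, the mitochondrial phenylalanyl-tRNA synthetase, a single-chain enzyme unlike its cytosolic counterpart, had 4.57 and 4.89 on the plumbagin arrays and 5.20 and 5.14 on the control arrays, a fitted difference of -0.44 ± 0.14. Both plumbagin values and the mean of 4.95 lay below the background level, so no fold is given. Without plumbagin 1 the difference was -0.28. Ears2, for glutamate, had 5.34 and 5.53 with plumbagin and 5.63 and 5.58 in the controls, a difference of -0.17 ± 0.10. It turned to 0.02 when the gene's 4 probe sets were averaged, all but the brightest of them having means below background. Fars2 was lower under each of the 11 alternatives that kept it, the filter on dim genes having removed it. Its groups did not overlap, so leaving out an array could not turn its sign.

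Mars2, for methionine, had 3.83 and 4.67 on the plumbagin arrays and 4.58 and 4.68 on the control arrays, all below background. Its difference of -0.39 ± 0.30 came from plumbagin 1 and was 0.04 without it. Vars2, for valine, had 5.95 and 6.09 with plumbagin and 6.26 and 5.99 in the controls, a difference of -0.10 ± 0.13, with overlapping groups. Hars2, for histidine, had the highest mitochondrial difference, with 4.87 and 4.90 with plumbagin and 4.96 and 4.72 in the controls, a difference of 0.04 ± 0.11, and all its values were below background. Cars2, for cysteine, differed by -0.20 ± 0.42, and its controls were 0.94 apart, the widest control gap in the family. Plumbagin 1 and control 1 were the higher arrays of their groups in Cars2. With the replicate number as a block its SE was 0.09, and it did not pass.

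The remaining mitochondrial members differed by less than their SE. Aars2 (alanine), Nars2 (asparagine), Sars2 (serine), Tars2 (threonine) and Pars2 (proline) differed by -0.07 ± 0.12, -0.08 ± 0.16, -0.07 ± 0.17, -0.07 ± 0.20 and -0.12 ± 0.16. Lars2 (leucine), Rars2 (arginine) and Wars2 (tryptophan) differed by 0.01 ± 0.16, 0.03 ± 0.09 and 0.03 ± 0.08, and Lars2 was below 0 with arrays centred on their medians (-0.0068). Iars2, for isoleucine, had 7.29 and 7.28 with plumbagin and 7.62 and 7.13 in the controls, a difference of -0.09 ± 0.18. The plumbagin arrays of Iars2 lay between the controls.

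For a given amino acid, 10 pairs had 1 gene measured in each compartment, leaving out the phenylalanine enzymes and the fused Eprs. In 6 pairs both genes were lower: those for alanine, isoleucine, methionine, asparagine, serine and valine, with Vars at -0.46 and Vars2 at -0.10. The mitochondrial difference was within its SE in each of these but the pair for methionine. In the other 4 the signs were opposite, and the mitochondrial difference was again within its SE in each. Wars differed by -0.38 and Wars2 by 0.03, Lars by -0.20 and Lars2 by 0.01, Rars by -0.11 and Rars2 by 0.03, and Hars by -0.02 and Hars2 by 0.04, and the signs of Lars2 and Hars turned under other normalizations. These pairs were set side by side without a test of their difference.

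The contrast between compartments depended on which arrays were used. With all 4 arrays the gap, the cytosolic median minus the mitochondrial median, was -0.12. The pooled SD of this gap between replicates, with the mean of each gene taken off, was 0.15 and so larger in size than the gap. Without plumbagin 1 the medians were -0.10 and -0.10, a gap of -0.01, and without control 2 they were -0.24 and -0.20, a gap of -0.05. Without plumbagin 2 they were -0.25 and 0.02, a gap of -0.27, and without control 1 they were -0.18 and 0.05, a gap of -0.23. The cytosolic median was below 0 in each of these 4 fits, while the mitochondrial median changed sign in 2 of them. The number of members lower was 17 of 32 without control 1, where 48.8% of all genes were lower, and 29 of 32 without control 2, where 59.0% were. The mitochondrial count was 4 of 15 without control 1 and 14 of 15 without control 2.

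**Figure D3:**
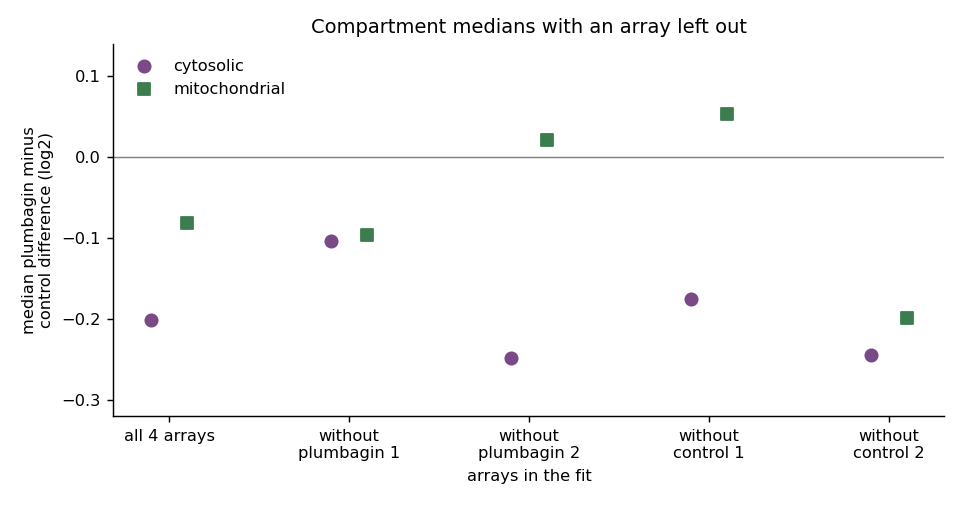
Median plumbagin minus control difference (vertical axis, log2) of 17 cytosolic and 15 mitochondrial synthetases, with all 4 arrays and with each array left out. Cytosolic medians stay between -0.25 and -0.10, and mitochondrial medians run from -0.20 to 0.05.

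Set against the mean of the controls, the cytosolic median was -0.25 on plumbagin 1 and -0.10 on plumbagin 2, with 15 and 13 of 17 members lower. The mitochondrial median was 0.02 on plumbagin 1 and -0.10 on plumbagin 2, with 7 and 10 of 15 members lower. Plumbagin 1 was the lowest of the 4 arrays in 10 cytosolic and 5 mitochondrial members. Control 1 was the highest array in 10 mitochondrial members, and it was above control 2 in 12 of the 15. The genes within the cytosolic range of means had medians of -0.09 on plumbagin 1 and -0.02 on plumbagin 2. Plumbagin 1 was also the array with the lowest upper quartile and the brightest hybridization controls, and the part of these in the result was not tested.

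Across all 12 alternatives tried, 9 cytosolic members were lower each time: Aars, Gars, Iars, Kars, Lars, Sars, Vars, Wars and Yars. Fars2 was the only mitochondrial member lower in each of those that measured it, and Wars2 was higher in each. The filter on dim genes, the trended, robust variance and the replicate block left every difference they kept unchanged. The 9 cytosolic members and Fars2 had groups that did not overlap, which fixes their sign in the 4 fits lacking an array. Such alternatives could not turn these signs and are not separate support. A difference below 0 under every alternative was found for 20.7% of all genes, and for 25.2% and 22.8% of the genes within the cytosolic and mitochondrial ranges of means. With the replicate number as a block and with a trended, robust variance, 0 members passed in either fit, and 3 had an unadjusted p under 0.05 in each, against 2.54% and 1.15% of all genes.

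Probe sets of the same gene were then compared. The 32 members had 57 probe sets, of which 0 passed over the 45037 probe sets tested with limma, where 0.0% passed in all, and 4 had an unadjusted p under 0.05 (Farsa, Vars, Fars2 and the brighter Aars probe set), against 1.58% of all probe sets. Of the 25 other probe sets of the 16 genes that had several, 15 had a mean above background, and 13 of these shared the sign of the brightest probe set. The other 10 lay below background, and 8 had the opposite sign, with differences from -0.18 to 0.20.

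The exceptions above background were Farsa and Iars2. The second Farsa probe set had 6.09 and 5.91 on the plumbagin arrays and 5.95 and 5.86 on the control arrays, a difference of 0.09 ± 0.10, against -0.46 for the brightest. The largest difference of the family thus rested on 1 probe set, and turned to 0.09 when probe sets with an x, s or a suffix were left out. The second Iars2 probe set had 5.70 and 5.49 with plumbagin and 5.69 and 5.48 in the controls, a difference of 0.01 ± 0.12.

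In other genes the bright probe sets shared a sign. The second Aars probe set had 8.66 and 9.23 on the plumbagin arrays and 9.48 and 9.44 on the control arrays, a difference of -0.52 ± 0.21, larger than the -0.27 of the brighter one. The second Sars probe set differed by -0.23 ± 0.10, the second Iars probe set by -0.26 ± 0.11 and the second Nars probe set by -0.28 ± 0.18. The other Wars probe sets differed by -0.49 ± 0.28 and -0.51 ± 0.27, and plumbagin 1 was the lowest array on each. The groups overlapped on the first of these, where plumbagin 2 had 7.74 and control 1 had 7.70. The 3 bright Eprs probe sets differed by 0.03 to 0.07. Members with 1 probe set, such as Vars, Gars, Lars and Fars2, had no such check.

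**Figure D4:**
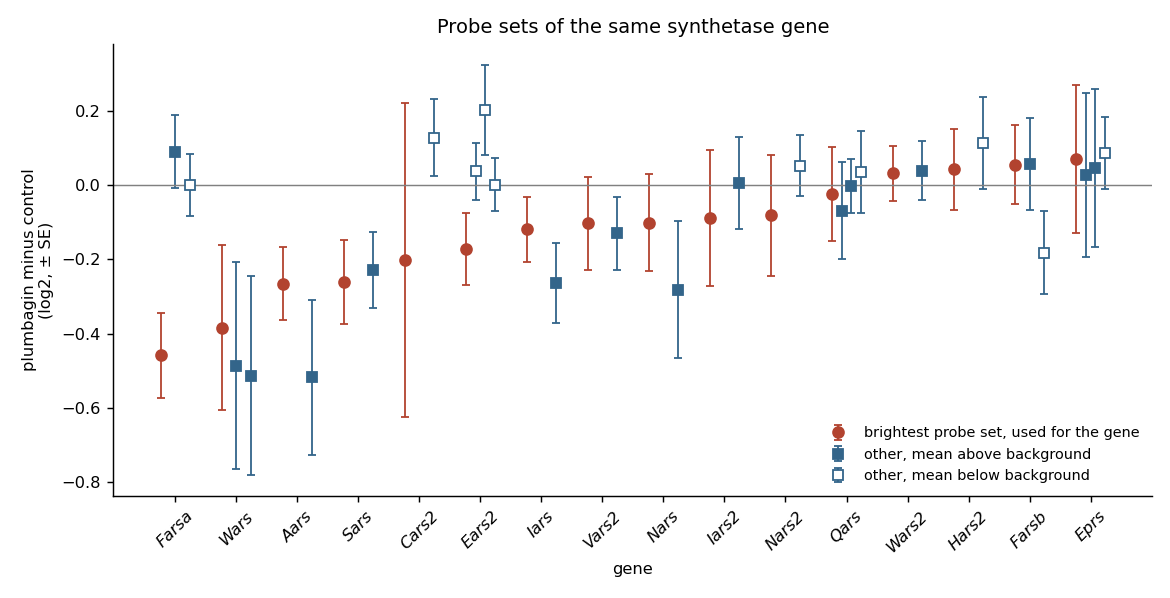
Plumbagin minus control difference with its SE (vertical axis, log2, n = 2 per group) for each probe set of the 16 synthetase genes that had several. Filled squares mark other probe sets above background and open squares those below it. Farsa has a bright probe set at 0.09 beside the one at -0.46.

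Genes that work beside the synthetases gave no limma call either (0 members with an adjusted p at or under 0.05 in each list). Their counts stand beside 55.1% of all genes lower and 15.2% not overlapping. Most of the listed genes had means above background, where 65.1% of genes were lower and 18.3% did not overlap. Integrated stress response regulators were lower in 12 of 14 measured genes (median -0.15), with 3 not overlapping. Set against the control mean, their median was -0.31 on plumbagin 1 and -0.03 on plumbagin 2. By limma 1 regulator had an unadjusted p under 0.05, against 0.988% of all genes. That gene was Gcn1, which helps activate the kinase GCN2 on ribosomes when uncharged tRNA accumulates. Gcn1 had 6.46 and 6.47 on the plumbagin arrays and 6.99 and 6.70 on the control arrays, a difference of -0.38 ± 0.12. Eif2ak1, an eIF2α kinase, and Cebpb, a bZIP transcription factor, differed by -0.20 ± 0.11 and -0.42 ± 0.27. ATF4 targets other than synthetases were lower in 16 of 18 (median -0.15), with 7 not overlapping, and their median was -0.28 on plumbagin 1 and -0.06 on plumbagin 2. Psph and Phgdh, which make serine, differed by -0.30 ± 0.10 and -0.27 ± 0.13, and Aldh18a1, of proline synthesis, by -0.52 ± 0.22.

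Factors of mitochondrial translation use the tRNAs charged by the mitochondrial enzymes. They were lower in 10 of 13 (median -0.13), with 6 not overlapping. Of all genes 55.1% and 15.2% did so, and of genes above background 65.1% and 18.3%. The median of these factors was -0.09 on plumbagin 1 and -0.12 on plumbagin 2. Trmu, a modifier of mitochondrial tRNAs, differed by -0.26 ± 0.12, the elongation factor Tufm by -0.26 ± 0.12, and Gatb, a subunit of the amidotransferase that makes mitochondrial glutaminyl-tRNA, by -0.21 ± 0.11. Cytosolic elongation genes were lower in 7 of 7 with a median of -0.06, and the groups overlapped in each: Eef2 differed by -0.15 ± 0.12, Eif5a by -0.08 ± 0.12 and Eef1g by -0.06 ± 0.09. Genes of tRNA maturation and charging quality were lower in 6 of 10 (median -0.03), with 2 not overlapping. These were Tsen54, of the tRNA splicing endonuclease, at -0.22 ± 0.11, and Elac2, which trims the tRNA 3′ end, at -0.21 ± 0.10. Ssb, the La protein, differed by 0.52 ± 0.39, its control 1 being lower than the other arrays. Precision was limited by the 2 arrays per group.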

How the data were processed

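Total RNA was labelled with biotin and hybridized to Affymetrix mouse genome array strips, with 1 sample on each. What the authors deposited was a log2 value for every probe set. The authors used Affymetrix Expression Console, RMA and Transcriptome Analysis Console, per the submitters' processing notes, but no version is given in the sources used here. RMA corrects background, makes arrays alike and summarises probes, which compresses weak signals and would remove a shift of most genes.

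Of 45141 probe sets, 104 were controls, 28898 had 1 gene symbol and 551 had several; the other 15588 were unnamed here. The annotation can be old; symbols of 28689 probe sets were updated through Entrez numbers in a RefSeq table of GRCm38.p6. No probe set with several symbols was used for a gene.

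Differences (plumbagin minus control) were fitted in R 4.3.3 by limma 3.58.1 (lmFit, then eBayes) over all 17097 genes, two-sided, without covariates, with Benjamini-Hochberg adjustment at 0.05. The code was tested on simulated data. Lists of members, companion genes, motifs and markers came from general knowledge and were chosen with earlier results of these data known. Values by array were given for the 6 cytosolic and 4 mitochondrial members with the smallest p, the highest in each compartment and members whose bright probe sets disagreed in sign; up to 3 genes by p were named per companion list. Values by array of the second Aars probe set and of Gcn1, and the remarks on single arrays, were added after the values were seen. The 12 alternatives are given in the closing section. Scanner files were not used. The promoter sequence of Aars is not reported here.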

Additional observations from a re-analysis of the deposited data

How the results depend on the processing

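The 12 alternatives were averaging the probe sets of each gene, probe sets with an x, s or a suffix left out, a filter on dim genes, 3 other normalizations, another variance model, a replicate block, and 4 fits that each lacked an array, in which the lone array of a group is taken to vary as much as the other group does. The dim-gene filter removed Fars2, Hars2, Mars2 and Pars2. No member passed under any of them. With the replicate block 0 members passed. A block balanced over the groups cannot change a difference, so the 26 members lower were fixed and only SE and p could move. The numbers shared by the groups had deviations correlated at 0.54 over 17097 genes and at 0.62 over the 8637 above background. The labels do not say that a number marks a shared culture or day. Unless stated, the SEs and intervals given here leave the replicate number out. The SE of Gars was 0.10 with and without the block.

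Under the 8 alternatives that kept all arrays, the family counts and medians kept their direction, and 10 member values changed sign. The dim-gene filter, the other variance model and the replicate block could not change the sign of a member. Averaged probe sets gave -0.023 for Farsb and 0.018 for Ears2; leaving out suffixed probe sets gave 0.090 for Farsa, -0.18 for Farsb and 0.035 for Qars; repeated quantile normalization gave 0.041 for Hars and 0.0050 for Qars; centring on medians gave -0.0068 for Lars2; and cyclic loess gave 0.050 for Hars and 0.033 for Qars. Without suffixed probe sets, Farsb and Qars rested on probe sets below background, with means of 4.17 and 2.90. The averages for Farsb and Ears2 also took in probe sets below background. The causes of the sign changes were not tested. With cyclic loess 8 members had both plumbagin arrays below both controls, against 12 in the values as reported; of all genes 14.6% and 15.2% did.

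With an array left out, the members lower ranged from 17 to 29 (48.8% to 59.0% of all genes), those with plumbagin below controls from 15 to 22 (28.2% to 39.9% of all genes, since fewer arrays had to separate), the median of all members from -0.22 to -0.069, the cytosolic median from -0.25 to -0.10, the mitochondrial median from -0.20 to 0.054, and their gap from -0.27 to -0.0074. The cause was not tested. Members whose sign turned ranged, among cytosolic genes, from -0.18 to 0.32 (Eprs), -0.037 to 0.15 (Farsb), -0.13 to 0.090 (Hars), -0.54 to 0.057 (Mars1), -0.22 to 0.020 (Nars), -0.16 to 0.11 (Qars) and -0.37 to 0.15 (Rars). Among mitochondrial genes they ranged from -0.17 to 0.023 (Aars2), -0.67 to 0.27 (Cars2), -0.077 to 0.16 (Hars2), -0.33 to 0.16 (Iars2), -0.15 to 0.17 (Lars2), -0.81 to 0.038 (Mars2), -0.29 to 0.13 (Nars2), -0.28 to 0.054 (Pars2), -0.036 to 0.095 (Rars2), -0.27 to 0.13 (Sars2), -0.31 to 0.17 (Tars2) and -0.23 to 0.029 (Vars2).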
